A study of Mus musculus with 6 samples.

Results

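The genes described here are those of the interferon response and of antigen presentation on class I molecules in mouse 3T3-L1 preadipocytes. They are 39 genes listed by name for their known roles, at a time when earlier results of these data were known. Of them, 38 had a row among the 21436 genes of the deposited table. Mx1 was not analysed here. RNA was sequenced from 2 groups of wild-type 3T3-L1 cells, an embryonic fibroblast line used as a model of adipocyte formation. In co-culture (3 libraries) the 3T3-L1 cells grew beneath a Transwell insert with 0.4 µm pores that held human umbilical cord mesenchymal stem cells. The cells cultured alone (3 libraries) had no cells above them. Both groups had spent 72 h in high-glucose medium with 10% serum, 2 µM rosiglitazone, 1 µM dexamethasone, 0.5 mM IBMX and 10 mg/L insulin, so every value below comes from cells under a glucocorticoid and a cyclic AMP-raising agent. The comparison asks how expression in the preadipocytes differed when the human cells were present, and both groups are 1 cell line.

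Interferons are secreted proteins by which cells warn each other of viruses. Type I interferons bind the receptor made of Ifnar1 and Ifnar2, and interferon gamma binds the receptor made of Ifngr1 and Ifngr2. Janus kinases on these receptors activate STAT proteins. A complex that holds Stat2 and Irf9 binds the interferon-stimulated response element (ISRE), while STAT dimers bind the gamma-activated sequence (GAS), which switches on Irf1 among others. The induced genes include antiviral effectors and the machinery that cuts proteins into peptides (the immunoproteasome), carries the peptides into the endoplasmic reticulum (Tap1, Tap2), loads them (Tapbp) and shows them on class I molecules (H2-K1 and H2-D1 with B2m). Fibroblasts and preadipocytes carry both receptors and can respond to both kinds of interferon.

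The promoters of 5 members are printed, and among them both elements are found. Irf1, Bst2 and B2m rose in co-culture. Isg15 and Ifit1 are classical interferon-induced genes, of which Isg15 did not pass the test and Ifit1 was too low to test. Each is the 250 bases before the annotated start, 5′ to 3′ in the direction of the gene, from RefSeq on GRCm38.p6, with ISRE and GAS matches in capitals. They lie at chr11:53769764-53770013 (plus strand, Irf1), chr8:71537473-71537722 (minus strand, Bst2), chr2:122147437-122147686 (plus, B2m), chr4:156200819-156201068 (minus, Isg15) and chr19:34640639-34640888 (plus, Ifit1).
Irf1: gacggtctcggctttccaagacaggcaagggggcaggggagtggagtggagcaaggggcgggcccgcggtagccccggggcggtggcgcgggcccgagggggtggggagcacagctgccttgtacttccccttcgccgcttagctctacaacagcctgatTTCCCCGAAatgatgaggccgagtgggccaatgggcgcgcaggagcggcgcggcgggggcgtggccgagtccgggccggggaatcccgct
Bst2: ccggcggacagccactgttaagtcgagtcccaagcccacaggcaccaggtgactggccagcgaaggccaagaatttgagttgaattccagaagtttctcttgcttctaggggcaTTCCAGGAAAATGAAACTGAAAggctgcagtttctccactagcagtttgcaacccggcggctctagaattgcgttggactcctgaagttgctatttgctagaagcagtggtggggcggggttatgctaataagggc
B2m: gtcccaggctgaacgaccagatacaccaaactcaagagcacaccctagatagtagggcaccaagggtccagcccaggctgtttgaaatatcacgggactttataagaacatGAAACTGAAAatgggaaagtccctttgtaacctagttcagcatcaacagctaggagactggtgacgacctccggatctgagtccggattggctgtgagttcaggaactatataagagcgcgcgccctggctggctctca
Isg15: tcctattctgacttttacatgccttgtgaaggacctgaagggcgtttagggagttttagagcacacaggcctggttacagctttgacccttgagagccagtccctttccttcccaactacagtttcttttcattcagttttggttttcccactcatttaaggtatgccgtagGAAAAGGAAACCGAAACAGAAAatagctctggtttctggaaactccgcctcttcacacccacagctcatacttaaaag
Ifit1: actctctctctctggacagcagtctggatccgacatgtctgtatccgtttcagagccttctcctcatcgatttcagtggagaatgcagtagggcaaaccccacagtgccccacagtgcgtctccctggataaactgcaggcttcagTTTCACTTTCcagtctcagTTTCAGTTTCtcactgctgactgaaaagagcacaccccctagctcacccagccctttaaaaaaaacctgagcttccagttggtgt
The capitals in Irf1 are a GAS that begins 90 bases before the start. In Bst2 a GAS beginning at 136 bases runs into 2 overlapping ISRE matches beginning at 130 and 124 bases. B2m has an ISRE at 139 bases, Isg15 has 3 overlapping ISRE matches at 78, 72 and 66 bases, and Ifit1 has 2 at 104 and 85 bases, read on the other strand.

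The ISRE was searched as GAAA, any 2 bases and GAAA, on both strands (TTTC, 2 bases and TTTC on the printed one), and the GAS as TTCNNNGAA, which reads the same on both strands, each in the 300 bases from 250 before to 50 after a start. RefSeq promoters were at hand for 34 members. An ISRE match was present for 14 of them (41.2%), against 3.99% of the 27025 genes with a promoter, and a GAS match for 9 (26.5%), against 9.55%. Among members that rose in co-culture, 2 of 7 had an ISRE match (Bst2 and B2m) and 3 of 7 a GAS match (Irf1, Ifit2 and Bst2). Among those tested and not called, 4 of 15 had an ISRE match (Stat2, Irf2, Ddx58 and Isg15) and 4 of 15 a GAS match (Ifnar1, Ifnar2, Irf2 and Psmb8). Among those too low to test, 8 of 12 had an ISRE match and 2 of 12 a GAS match. A match is a string of letters and not a measured binding site.

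The libraries held 29603755 to 37612585 reads in co-culture and 36119750 to 38357563 reads alone, recovered from the deposited values. Read counts given below are not scaled for these totals, so close counts do not give the direction of a change. Within groups the Pearson correlation across genes was 0.9974 to 0.9982, and genes are not independent replicates. Recovered reads of every library pair differed by more than counting noise, so no library was a copy of another. Whether each library is its own culture is not stated in the labels, and the p-values reflect only how these libraries vary, possibly for technical reasons. All 9 fibroblast and preadipocyte markers in the table were above 1 FPKM, led by Col1a2 (mean 799 FPKM over all libraries) and Col3a1 (536 FPKM), and 3 rose and 3 fell in co-culture. Of the adipocyte markers Lpl (208 FPKM) and Fabp4 (55.8 FPKM) were high, and they moved in opposite directions. Lpl fell in co-culture (190.5 FPKM in co-culture and 226.0 FPKM alone, limma adjusted p = 0.00135). Fabp4 was higher in every co-culture library but just missed the threshold (58.2 FPKM in co-culture and 53.4 FPKM alone, adjusted p = 0.0508). The adipocyte hormone gene Adipoq had 0 reads in co-culture and 1 read alone. FPKM are fragments scaled by gene length and library size, so levels below can be compared between genes.

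Member levels differed widely (plot of levels by library). B2m, the invariant light chain of class I molecules, was the most abundant, with a mean of 641 FPKM and rank 94 of 21436, followed by the class I heavy chains H2-D1 (196 FPKM) and H2-K1 (64.2 FPKM) and the loading factor Tapbp (60.9 FPKM). The 4 receptor chains lay between 14.6 and 29.5 FPKM. Antiviral effectors were mostly among the lowest members: 9 of the 13 measured had a mean below 1 FPKM, as did 11381 of all 21436 genes. All 3 guanylate-binding protein genes, Irf7 and the RNA sensor Ifih1 were below 1 FPKM too. The lowest was Oasl1, at 0.0484 FPKM. H2-K1 and Tapbp overlapped in co-culture and not in cells alone, and Ifngr1, Ifngr2 and Bst2 overlapped each other in cells alone.

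**Figure D1:**
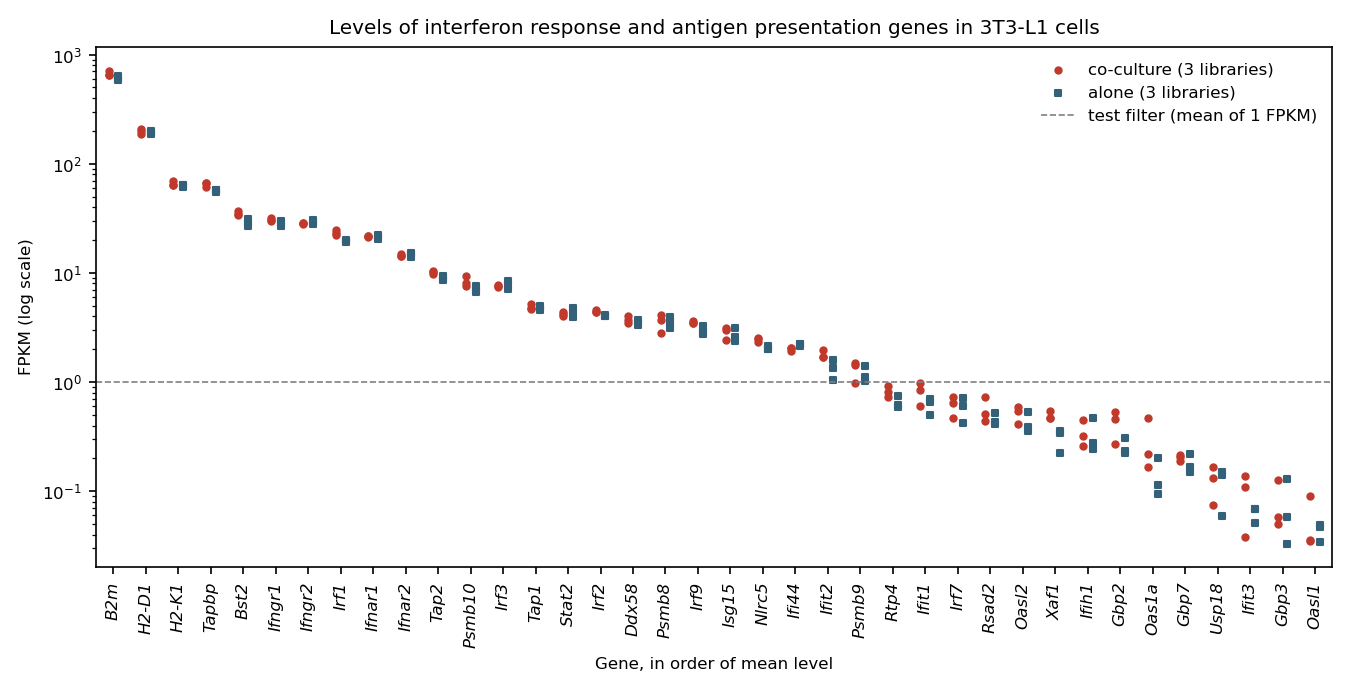
FPKM in each library (log scale) for the 38 measured genes in order of mean level, with co-culture as circles and alone as squares. The 14 genes right of Psmb9 lie below the dashed line at a mean of 1 FPKM and were tested only when low genes were included, and the 4 most abundant genes all belong to class I presentation.

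In co-culture 9 members rose, by 10.9% (B2m) to 34.1% (Ifit2) in mean FPKM, and none was called lower. Of the 24 members with a mean of at least 1 FPKM, 9 rose (37.5%), against 13.9% of all 10055 tested genes, and 0 fell, against 17.9% (31.8% of all tested genes in either direction; limma on log2(FPKM + 1), Benjamini-Hochberg adjusted p below 0.05 over all tested genes). At an unadjusted p below 0.05 the same test gave 9 higher and 0 lower (1937 and 2322 of all 10055 tested genes). Limma-voom on recovered reads gave 7 higher and 0 lower (1492 and 1911 of all tested genes). The 9 were the regulators Irf1, Irf9 and Nlrc5, the effectors Bst2 and Ifit2, the immunoproteasome subunit Psmb10, and Tap2, Tapbp and B2m of class I presentation. The median log2 change was 0.07 over the 24 and 0.00 (−0.004) over all tested genes. Groups did not overlap for 10 of the 24 in the higher direction (21.3% of all tested genes) and for 1 in the lower (24.8%). No tested member had a mean below 1 FPKM in either group. Members were chosen with earlier results of these data known, so the shares above describe the list and do not test it. In bulk RNA, more RNA per cell and more cells of a kind cannot be told apart.

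Irf1, Bst2 and Tapbp rose in every one of 13 alternative analyses, while the other 6 calls depended on single libraries. The count of 9 members was 5 without co-culture replicate 1, 3 without co-culture replicate 2, 4 without co-culture replicate 3, 7 without alone replicate 1, and 4 without alone replicate 2 or 3. When low genes were also fitted and tested, 21436 genes in all, it was 3.

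**Figure D2:**
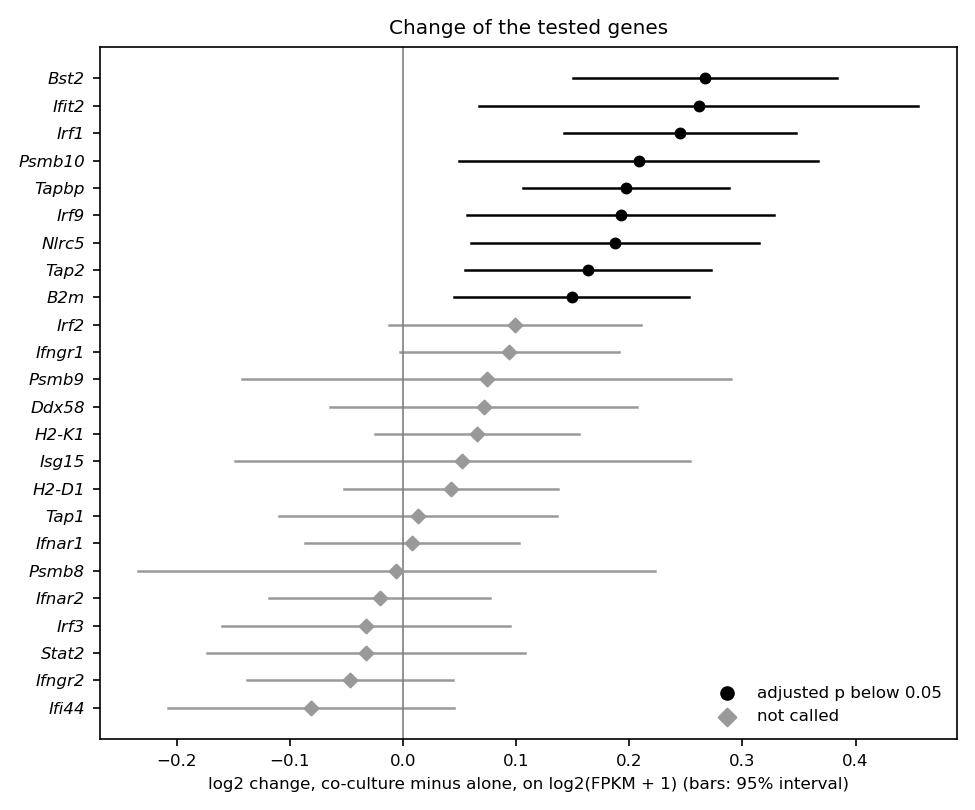
The log2 change (co-culture minus alone, on log2(FPKM + 1)) of the 24 tested genes with its 95% interval, with genes past the threshold as black circles and the others as grey diamonds. The 9 called genes lie between 0.15 and 0.27, and the grey intervals all include 0.

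The receptors did not pass the test. Ifnar1, the signal-starting chain of the type I receptor, had 21.7, 21.2 and 21.6 FPKM in co-culture and 20.3, 22.4 and 21.5 FPKM alone. Ifnar2, its partner chain, had 14.3, 14.3 and 14.9 FPKM in co-culture and 15.4, 14.8 and 14.1 FPKM alone. For both, the co-culture libraries fell within the range of the cells alone. The 95% intervals of the log2 change ran from −0.09 to 0.10 for Ifnar1 and from −0.12 to 0.08 for Ifnar2. Ifngr1, the ligand-binding chain for interferon gamma, was at 30.5 ± 1.03 FPKM in co-culture and 28.5 ± 1.31 FPKM alone (SD, n = 3; log2 change 0.09, limma adjusted p = 0.129). Ifngr2, its accessory chain, was at 28.5 ± 0.525 FPKM in co-culture and 29.5 ± 1.30 FPKM alone (adjusted p = 0.414). No receptor gene reached an unadjusted p below 0.05, and voom called 0. Ifnar2, Ifnar1 and Ifngr2 are neighbours on mouse chromosome 16, between 91372783 and 91564007 (GRCm38.p6), and Ifngr1 lies on chromosome 10.

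Of the 6 tested transcription regulators, Irf1, Irf9 and Nlrc5 rose. Irf1, an early interferon-induced activator of class I genes, had 22.2, 24.9 and 23.2 FPKM in co-culture and 19.1, 20.0 and 19.7 FPKM alone. Every co-culture library was above every library of cells alone, with a 1.195-fold difference of means (log2 change 0.24, SE 0.046, limma adjusted p = 0.00277). Irf9, the DNA-binding part of the ISRE complex, had 3.47, 3.66 and 3.47 FPKM in co-culture and 2.87, 3.26 and 2.78 FPKM alone. The groups did not overlap (1.19-fold, log2 change 0.19, SE 0.061, adjusted p = 0.0355). Nlrc5, the transactivator of class I genes, had 2.47, 2.54 and 2.35 FPKM in co-culture and 1.99, 1.99 and 2.12 FPKM alone. It too was higher in all 3 co-culture libraries (1.21-fold, log2 change 0.19, adjusted p = 0.0303).

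Irf9 was not called without any 1 library except alone replicate 2 (adjusted p 0.0680 to 0.117 in those 5 fits), with TPM scaling (0.0541) or with voom (0.0507), and Nlrc5 was not called without co-culture replicate 1 or 2 or alone replicate 1 or 2 (0.0604 to 0.0924) or with TPM scaling (0.0541). Irf1 kept an adjusted p of at most 0.0114 in all 6 fits that leave out a library.

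The other regulators did not pass. Stat2, the partner of Irf9, was at 4.20 ± 0.156 FPKM in co-culture and 4.33 ± 0.396 FPKM alone (adjusted p = 0.723). Irf3, which switches on interferon genes after virus sensing, was at 7.58 ± 0.140 FPKM in co-culture and 7.79 ± 0.642 FPKM alone (adjusted p = 0.698). Irf2, an antagonist of Irf1 at shared sites, was higher in all 3 co-culture libraries, with 4.56, 4.38 and 4.34 FPKM against 4.15, 4.01 and 4.04 FPKM alone, but missed the threshold (log2 change 0.10, adjusted p = 0.162). Irf7, the amplifier of the type I response, was low, with 124 reads in co-culture and 126 alone (0.615 FPKM in co-culture and 0.582 FPKM alone). The RNA sensor Ddx58 (RIG-I) was at 3.74 ± 0.256 FPKM in co-culture and 3.51 ± 0.197 FPKM alone (adjusted p = 0.406). The sensor Ifih1 (MDA5) had 206 reads in co-culture and 208 alone (0.343 FPKM in co-culture and 0.331 FPKM alone).

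**Figure D3:**
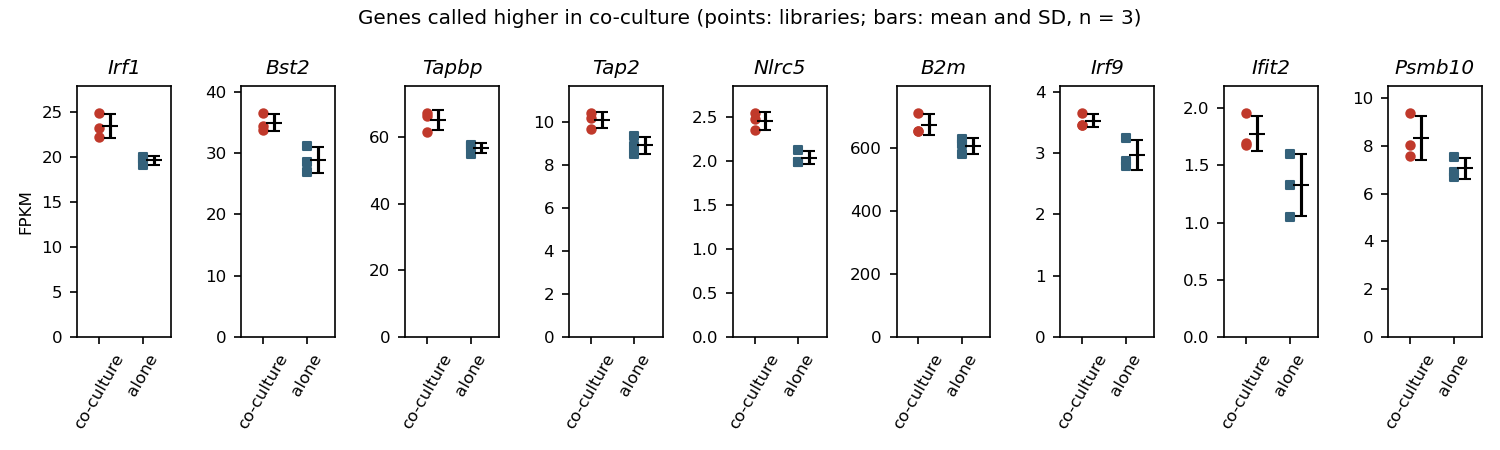
FPKM of the 9 genes called higher, with 1 point for each library and the mean with its SD beside the points (n = 3 per group, axes from 0). In every panel the lowest co-culture library lies above the highest library of cells alone, and for Ifit2 and Psmb10 the gap is small.

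Among antiviral effectors, Bst2 and Ifit2 rose. Bst2 (tetherin), which holds budding viruses at the cell surface, had 36.5, 34.5 and 33.8 FPKM in co-culture and 31.2, 28.6 and 27.0 FPKM alone. The ranges were apart, by 1.21-fold in the means (log2 change 0.27, SE 0.053, limma adjusted p = 0.00354). Ifit2, which blocks translation of viral RNA, had 1.96, 1.70 and 1.68 FPKM in co-culture and 1.60, 1.33 and 1.05 FPKM alone. Its groups were apart by a narrow margin (1.34-fold, log2 change 0.26, SE 0.088, adjusted p = 0.0431). The call on Ifit2 was lost without any 1 library except alone replicate 1 (0.0689 to 0.146).

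Other effectors above the filter did not pass. Isg15, the ubiquitin-like modifier and a classical sign of interferon exposure, had 3.13, 2.99 and 2.41 FPKM in co-culture and 3.14, 2.60 and 2.38 FPKM alone. The groups overlapped (log2 change 0.05, 95% interval −0.15 to 0.25, adjusted p = 0.694). Ifi44, an interferon-induced gene, was the 1 member whose libraries were all lower in co-culture, with 2.04, 1.93 and 2.07 FPKM against 2.21, 2.23 and 2.12 FPKM alone, without passing the test (log2 change −0.08, adjusted p = 0.305).

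The remaining 14 measured members had means below 1 FPKM and few reads, and none was called when low genes were included. That fit, limma without the filter, called 10.2% of all 21436 genes in either direction. In it 1 of the 14 had an unadjusted p below 0.05, as did 1084 of the 11381 genes below the filter. The log2 changes of the 14 were all positive, as were those of 6827 of the 11381 genes below the filter. Several were near 0, such as 0.01 for Gbp3 and 0.01 for Usp18. This scale understates changes of low genes, and in mean FPKM the 14 ran from 1.04-fold (Ifih1) to 2.08-fold (Oas1a). Gbp3 was at 1.07-fold and Usp18 at 1.08-fold, while Oasl1 was at 1.23-fold with a log2 change of 0.01. The nearest to the threshold was Xaf1, an interferon-induced gene linked to apoptosis, with 99, 107 and 108 reads in co-culture and 80, 79 and 53 alone. In FPKM that was 0.547, 0.465 and 0.473 against 0.345, 0.358 and 0.226, with no overlap (adjusted p = 0.0634). Rtp4 had 252 reads in co-culture and 217 alone (adjusted p = 0.226). Ifit1 had 229 reads in co-culture and 185 alone, with FPKM of 0.602, 0.988 and 0.853 in co-culture that overlapped 0.700, 0.504 and 0.662 alone (adjusted p = 0.388).

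Several of these genes were close to the limit of detection. Ifit3 had 28 reads in all co-culture libraries and 19 in all libraries of cells alone, Usp18 (the protease that removes Isg15 from proteins) had 23 in co-culture and 23 alone, and Oasl1 had 12 in co-culture and 11 alone. Oas1a, an enzyme that makes the second messenger of RNase L, had 27, 16 and 12 reads in co-culture and 7, 8 and 15 alone, with 27 of the 55 co-culture reads in 1 library. Oasl2 had 170 reads in co-culture and 149 alone, and Rsad2 (viperin) had 217 in co-culture and 193 alone. The guanylate-binding proteins are large GTPases that attack the vacuoles of intracellular microbes. Of these, Gbp2 had 107 reads in co-culture and 70 alone, and Gbp7 had 119 in co-culture and 113 alone. Gbp3 had 25 reads in co-culture and 26 alone (0.0790 FPKM in co-culture and 0.0738 FPKM alone).

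Of the 3 immunoproteasome subunits, Psmb10 passed the test, and whether the subunits differed in their change was not tested. Psmb10, which replaces the constitutive subunit Psmb7, had 7.58, 9.38 and 8.02 FPKM in co-culture and 7.54, 6.91 and 6.71 FPKM alone. The lowest co-culture library was just above the highest library of cells alone (1.18-fold, log2 change 0.21, SE 0.072, limma adjusted p = 0.0473). Its call was lost without co-culture replicate 2 or 3 or alone replicate 2 or 3 (0.0744 to 0.158) and with voom (0.0699). Psmb8, which replaces Psmb5, was at 3.54 ± 0.651 FPKM in co-culture and 3.54 ± 0.429 FPKM alone, and Psmb9, which replaces Psmb6, was at 1.30 ± 0.280 FPKM in co-culture and 1.18 ± 0.190 FPKM alone. Neither passed (adjusted p = 0.970 and 0.598), and the 95% interval of Psmb8 ran from −0.23 to 0.22 in log2.

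Immunoproteasome subunits were a small fraction of their constitutive counterparts in both groups. Psmb10 was at 7.03, 8.52 and 6.87% of Psmb7 in co-culture and at 6.13, 6.47 and 6.31% alone. These ranges did not overlap, with a difference in mean log2 ratio of 0.24 (two-sided exact permutation p = 0.1, the smallest that 3 libraries against 3 can give; 0.3 adjusted over 3 ratios). Psmb8 was at 6.98, 11.1 and 9.45% of Psmb5 in co-culture and at 6.67, 9.64 and 8.15% alone, and Psmb9 at 1.77, 1.15 and 1.79% of Psmb6 in co-culture and at 1.11, 1.64 and 1.22% alone. Both overlapped between groups (exact permutation p = 0.6 and 0.3, adjusted 0.6 and 0.45). Among the constitutive subunits Psmb5 fell, with 40.3, 36.9 and 39.2 FPKM in co-culture and 46.5, 41.1 and 43.4 FPKM alone (log2 change −0.17, limma adjusted p = 0.0282; not called without co-culture replicate 2 or 3 or alone replicate 1 or 3, 0.0618 to 0.0994). Psmb6 was at 83.2 FPKM in co-culture and 90.1 FPKM alone, and Psmb7 at 111.5 FPKM in co-culture and 112.0 FPKM alone, and neither passed (adjusted p = 0.191 and 0.959).

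**Figure D4:**
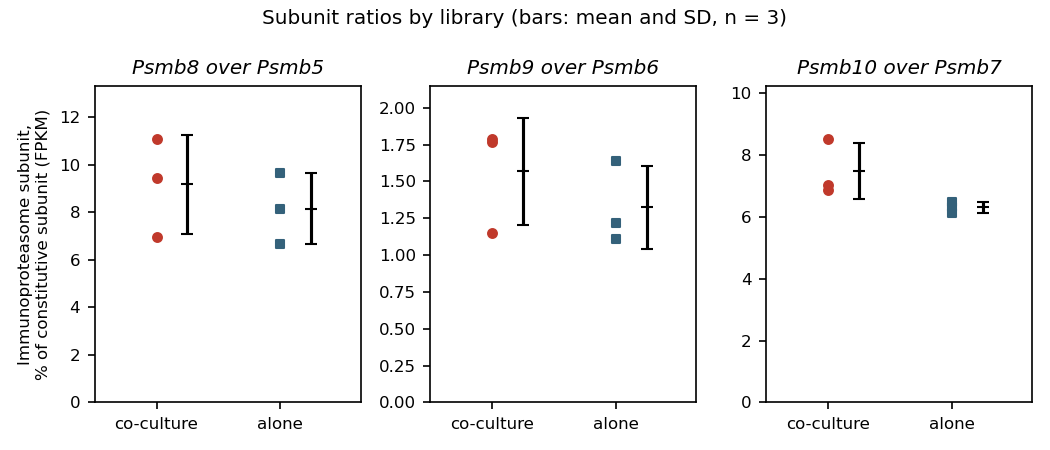
FPKM of each immunoproteasome subunit as a percentage of the constitutive subunit it replaces, in each library (mean and SD beside the points, n = 3, axes from 0). Psmb10 over Psmb7 is higher in all 3 co-culture libraries, while the other 2 ratios overlap.

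In the class I pathway the peptide-loading genes Tapbp and Tap2 and the light chain B2m rose, while the heavy chains did not pass. Tapbp (tapasin), which bridges class I molecules to the peptide transporter, had 67.3, 61.6 and 66.4 FPKM in co-culture and 57.7, 55.0 and 57.3 FPKM alone. All co-culture libraries were higher (1.15-fold, log2 change 0.20, SE 0.041, limma adjusted p = 0.00485). Tap2, 1 of the 2 chains of the peptide transporter, had 9.70, 10.4 and 10.2 FPKM in co-culture and 9.34, 8.54 and 8.91 FPKM alone (1.13-fold, log2 change 0.16, adjusted p = 0.0280). Its partner chain Tap1 had 4.64, 5.15 and 4.74 FPKM in co-culture and 4.97, 4.81 and 4.58 FPKM alone, which overlapped (log2 change 0.01, 95% interval −0.11 to 0.14, adjusted p = 0.876).

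B2m had 656, 712 and 655 FPKM in co-culture and 631, 612 and 581 FPKM alone, so every co-culture library was higher, by 1.11-fold in the means (log2 change 0.15, SE 0.047, limma adjusted p = 0.0335). H2-K1 was at 65.7 ± 3.07 FPKM in co-culture and 62.7 ± 1.60 FPKM alone (log2 change 0.07, 95% interval −0.02 to 0.16, adjusted p = 0.249), and H2-D1 at 199 ± 9.06 FPKM in co-culture and 193 ± 6.96 FPKM alone (log2 change 0.04, −0.05 to 0.14, adjusted p = 0.483). The interval of B2m (0.05 to 0.25) overlaps both of these, and whether the light chain differed from the heavy chains was not tested. B2m was not called without any 1 library except alone replicate 1 (0.0557 to 0.131), and Tap2 was not called without co-culture replicate 2 or 3 or alone replicate 2 or 3 (0.0681 to 0.102).

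Genes that rose and genes that did not were neighbours. H2-K1, Tapbp, Psmb9, Tap1, Psmb8, Tap2 and H2-D1 all lie in the histocompatibility region of mouse chromosome 17, between 33919478 and 35267497 (GRCm38.p6). Tap1 (34187556 to 34197225) and Tap2 (34204479 to 34216321) flank Psmb8, and of these only Tap2 rose. B2m lies on chromosome 2 (122147687 to 122153082), Irf1 on chromosome 11 (53770014 to 53778374) and Bst2, Psmb10 and Nlrc5 on chromosome 8. In GENCODE M21, exons of Psmb9 and Tap1 share 212 bp on opposite strands, Tapbp shares 904 bp with Gm19412 (opposite) and 149 bp with Zbtb22 (same strand), Tap2 shares 533 bp with Gm15821 (opposite), Irf1 135 bp with Gm17334 (opposite), Irf9 123 bp with Rnf31 (same) and Nlrc5 78 bp with 9330175E14Rik (opposite). Psmb8 shares 498 bp with Gm20496 (opposite), Ifnar2 315 bp with Gm21970 (same) and Tap2 165 bp with Gm20496 (opposite). Some other members share exons with other genes too. No source used here says if counting used strand, so reads from all such shared stretches are uncertain. Reads of H2-K1, H2-D1 and of the Ifit, Oas and Gbp genes are also uncertain, since they have similar copies.

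Other genes of the same pathways, listed by role, moved in both directions (plot of calls by list). Of 66 other interferon-stimulated genes 64 were in the table and 35 were tested. In co-culture 16 of the 35 rose (45.7%, against 13.9% of all tested genes) and 3 fell (8.57%, against 17.9%), with a median log2 change of 0.12. Lgals9, a galectin, had 63.3, 62.2 and 67.8 FPKM in co-culture and 51.7, 49.2 and 50.1 FPKM alone (1.28-fold, limma adjusted p = 1.45e-04). Ifitm1, which blocks viral entry, had 3.25, 4.15 and 4.43 FPKM in co-culture and 1.86, 2.37 and 2.08 FPKM alone (1.87-fold, adjusted p = 5.18e-04). Both were well separated between the groups. Ifitm3 (mean 976.5 FPKM over all libraries) and Ifitm2 (456.4 FPKM), named after their values were seen, were far more abundant than Ifitm1. Neither was called (adjusted p = 0.53 and 0.103), so the rise of Ifitm1 does not describe the Ifitm genes as a group.

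Igtp, an immunity-related GTPase, had 1.44, 1.55 and 1.38 FPKM in co-culture and 0.847, 0.821 and 0.825 FPKM alone (1.75-fold, adjusted p = 6.77e-04). It and Parp14 passed the filter only through their level in co-culture. Without the filter Igtp was called (limma adjusted p = 0.00704) and Parp14 was not (0.0521). The other genes of that list that rose, named after their values were seen, were Ifi27l2a, Irgm1, Samd9l, Dtx3l, Uba7, Nmi, Parp14, Trim21, Parp9, Pml, Trim30a, Ifi203 and Parp10, by 1.15-fold to 1.51-fold. The 3 that fell were Slfn2 (10.2 ± 0.543 FPKM in co-culture, 13.8 ± 0.957 FPKM alone, adjusted p = 4.95e-04), Shisa5 (26.7 ± 1.00 FPKM in co-culture and 30.3 ± 1.01 FPKM alone, 0.00990) and the DNA sensor family gene Ifi204 (61.3 ± 2.18 FPKM in co-culture and 68.1 ± 1.78 FPKM alone, 0.0133). Of the 16 that rose, 11 were called without any single library, and Ifi203, Nmi, Parp14, Pml and Trim21 each lost the call without 2 to 4 of the libraries. Ifi204 was not called without co-culture replicate 1 or 3 (0.0556 to 0.0580). Shared exons were listed for the members only. By their coordinates Parp9 and Dtx3l overlap, and Ifi27l2a encloses Ifi27, which was not called. Whether their exons overlap was not tested, so the reads of these genes may be uncertain too.

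Of the 29 genes of that list below the filter, 4 were called in the fit without it (282 of all 11381 genes below the filter), all higher and named after their values were seen. Cxcl10, a chemokine and a classical interferon-induced gene, had 1.53, 1.18 and 1.19 FPKM in co-culture and 0.551, 0.528 and 0.568 FPKM alone (148 reads in co-culture and 68 alone, 2.37-fold, limma adjusted p = 0.00859). The others were the GTPases Ifi47 (130 reads in co-culture and 82 alone, 0.0104) and Irgm2 (432 reads in co-culture and 283 alone, 0.0376), and Ifi205 (73 reads in co-culture and 43 alone, 0.0245). Their libraries did not overlap between the groups.

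**Figure D5:**
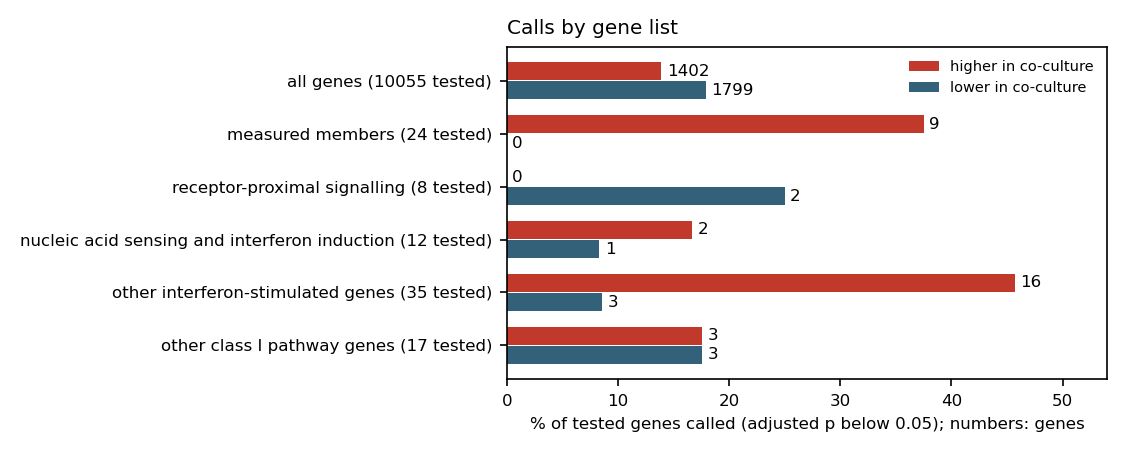
Share of tested genes called higher or lower in co-culture, for all 10055 tested genes, the 24 tested members and the lists of related genes with at least 8 tested genes; numbers at the bars are genes called. The members and the other interferon-stimulated genes have the largest shares called higher among these lists, 37.5% and 45.7%. Igtp and Parp14, in the second share, passed the filter only through co-culture. Members and lists were chosen with earlier results of these data known.

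Interferon RNA of the mouse cells was at or near 0, and interferons of the human cells in the insert were not measured. Of 21 ligand genes listed, 6 had a row. Ifnb1 had 0 reads in co-culture and 1 alone, Ifna4 had 1 in co-culture and 0 alone, and Ifng had 2 in co-culture and 0 alone. Ifne, an interferon of epithelia, had 4 reads in co-culture and 12 alone (adjusted p = 0.0422 without the filter). These few reads do not allow a level to be compared.

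Among 8 tested genes that act at or just below receptors, including the receptor chain Il10rb, 0 rose, against 13.9% of all tested genes. In the same list 2 fell, against 17.9%. At an unadjusted p below 0.05 there were 0 higher and 3 lower (1937 and 2322 of all 10055 tested genes). Voom called 0 higher and 3 lower (1492 and 1911 of all tested genes). Socs1, the feedback inhibitor of Janus kinases, had 1.46, 1.31 and 1.58 FPKM in co-culture and 2.79, 2.48 and 3.02 FPKM alone. Every co-culture library was lower, by 1.91-fold in the means (log2 change −0.62, SE 0.072, limma adjusted p = 1.52e-04), a larger change than that of any tested member. Ptpn2, a phosphatase that switches off Janus kinases and STAT proteins, had 5.27, 4.88 and 5.18 FPKM in co-culture and 6.19, 5.67 and 5.71 FPKM alone (1.15-fold lower, adjusted p = 0.0375), but was not called without any 1 of the 6 libraries (0.0562 to 0.121). The kinase genes Jak1, Jak2 and Tyk2 did not pass (adjusted p = 0.140, 0.651 and 0.310).

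Of 12 tested genes of nucleic acid sensing, 2 rose (16.7%, near the 13.9% of all tested genes) and 1 fell (8.33%, against 17.9%). Tbk1, the kinase that activates Irf3, was at 16.6 ± 0.466 FPKM in co-culture and 14.6 ± 0.360 FPKM alone (1.14-fold, limma adjusted p = 0.00952). Traf6, a ubiquitin ligase of Toll-like receptor signalling, was at 6.86 ± 0.340 FPKM in co-culture and 5.78 ± 0.193 FPKM alone (1.19-fold, 0.0112). Traf3, an adaptor on the way to interferon induction, was at 1.26 ± 0.0505 FPKM in co-culture and 1.60 ± 0.149 FPKM alone (1.26-fold lower, 0.0439), a call lost without any 1 library except alone replicate 1 (0.0737 to 0.145).

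Other genes of class I presentation were split, with 3 of 17 tested genes higher and 3 lower. The share of 17.6% in each direction was near that of all tested genes. Cd1d1, which presents lipids, was at 2.99 ± 0.104 FPKM in co-culture and 2.19 ± 0.248 FPKM alone (1.36-fold, limma adjusted p = 0.00473). Mr1, which presents vitamin B metabolites, was at 15.9 ± 0.469 FPKM in co-culture and 13.6 ± 0.514 FPKM alone (1.16-fold, 0.00553), and Rfx5, a factor of class I and II promoters, at 2.65 ± 0.138 FPKM in co-culture and 2.24 ± 0.0385 FPKM alone (1.18-fold, 0.0422). The chaperone Canx (119 ± 2.86 FPKM in co-culture and 133 ± 0.403 FPKM alone, 0.00387), the proteasome activator Psme3 (28.5 ± 0.806 FPKM in co-culture and 31.5 ± 0.472 FPKM alone, 0.0157) and H2-M3 (3.58 ± 0.152 FPKM in co-culture and 4.16 ± 0.231 FPKM alone, 0.0392) fell. Rfx5 was not called without any 1 library except co-culture replicate 2 (0.0750 to 0.141), H2-M3 without co-culture replicate 2 or 3 or alone replicate 1 or 2 (0.0788 to 0.113), or Psme3 without co-culture replicate 3 or alone replicate 2 (0.0568 to 0.0708).

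Of the class II genes, which mark professional antigen-presenting cells, 7 of the 8 in the table lay below the filter. Ciita, their master regulator, had 4 reads in co-culture and 6 alone, H2-Ab1 had 0 in co-culture and 2 alone, and H2-Aa had 1 in co-culture and 6 alone. Alone replicate 3 held 5 of the 6 H2-Aa reads and 2 of the 2 H2-Ab1 reads, and alone replicate 2 held 5 of the 6 Ciita reads. More reads came from Cd74, the invariant chain, with 105 reads in co-culture and 115 alone, and H2-DMb1, with 47 in co-culture and 60 alone. The 1 tested gene, H2-DMa, had 1005 reads in co-culture and 1038 alone. Its mean was 1.16 FPKM in co-culture and 1.11 FPKM alone, and it did not pass (adjusted p = 0.736). Leukocyte markers summed to 15.3 to 18.9 FPKM in co-culture and 17.3 to 20.8 FPKM alone over 12 genes, nearly all from Cd14 and Cd68, and neither was called. The defining leukocyte gene Ptprc had 3 reads in co-culture and 7 alone, 5 of the 7 in alone replicate 3. Lyz2, of macrophages and neutrophils, had 47 reads in co-culture and 149 alone, 76 of the 149 in alone replicate 3. Its co-culture libraries all lay below those of cells alone (adjusted p = 0.0915 without the filter). Endothelial markers (led by Eng and Emcn) summed to 0.651 to 0.656 FPKM in co-culture and 0.359 to 0.594 FPKM alone, with none above a mean of 1 FPKM. These low sums were higher in co-culture, but Eng overlapped between the groups (limma adjusted p = 0.420 without the filter). Of the 6 endothelial genes in the table, 4 had a positive log2 change and 2 a negative one, and 0 were called without the filter. Epithelial markers (led by Krt19 and Krt8) summed to at most 0.113 FPKM in any library. The part of these markers in the results was not tested.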

How the data were processed

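The deposited table holds FPKM values (fragments scaled by gene length and library size), computed by the authors for 21436 genes in 6 libraries, and 0 value columns were without a sample. Per the submitters' processing notes the tools were fastp, HISAT2 and HTSeq with mm10; no source used here gives their versions, the annotation or the strand setting. Per the labels' protocols, TRIzol RNA and the VAHTS Universal V6 kit were used.

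Co-culture was compared with alone by limma 3.58.1 (R 4.3.3, moderated with an intensity trend) on log2(FPKM + 1) in a model that had no replicate block, for the 10055 genes whose mean reached 1 FPKM. Its adjusted p is Benjamini-Hochberg over those genes, with calls below 0.05. Log2 changes on this scale understate those of low genes, and folds are ratios of mean FPKM. For genes below the filter the fit without it is given.

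Reads were recovered from the FPKM values: all 21436 genes resolved to whole reads (tolerance 1e-10), scaled by the 1545 bp of mt-Co1, and gene lengths implied by this came out whole (within 0.01 bp) for 99.17% of the 12045 genes of 100 or more reads. Reads without molecular identifiers give counting error only.

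Alternatives were a pseudocount of 0.1, no filter, a filter at 5 FPKM, median-ratio and TPM scaling, the replicate number as a block, limma-voom on recovered reads, and each library left out.

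All 39 members are named. From each list of other pathway genes, up to 3 called genes in each direction with the smallest adjusted p are named, and the 2 most abundant genes of each marker list. Members and lists were chosen with earlier results of these data known. The promoters of Irf1 and Bst2 are those of the 2 members called higher with the smallest adjusted p. The other promoters were chosen after their values were seen, so all were chosen by the results. Coordinates are RefSeq on GRCm38.p6, the same assembly as mm10.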

Additional observations from a re-analysis of the deposited data

How the results depend on the processing

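The count of 9 members higher in co-culture was 3 without the filter and 5 with the replicate number as a block, and 3 to 7 when 1 library was left out. The count of members lower was 0 in every alternative. Over all tested genes, 1402 higher calls became 925 to 1419 with 1 library left out. Of the other pathway genes, the 21 higher were 7 with a filter at 5 FPKM (44 instead of 76 tested), and the 10 lower were 4 to 10 with 1 library left out. With the block Nlrc5, Psmb10, Tap2 and B2m lost their calls (adjusted p = 0.0559, 0.0618, 0.0562 and 0.0536). Deviations of same-numbered libraries correlated at −0.04, 0.11 and −0.08, and those of differently numbered libraries at −0.123 to 0.171. With 3 libraries per group these values cannot decide whether replicate numbers pair the libraries. The differences in the subunit ratios kept their sign with a pseudocount of 1 and with each library left out. A block cannot move a difference of means in this balanced design, so the values with it (0.16, 0.24 and 0.24 for Psmb8, Psmb9 and Psmb10) say nothing about stability.

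Directions turned only for genes that were not called. With 1 library left out the log2 change ranged from −0.0268 to 0.0407 for Ifnar1, −0.0507 to 0.00767 for Ifnar2, −0.0845 to 0.0222 for Stat2, −0.0839 to 0.0212 for Irf3, −0.0115 to 0.136 for Isg15, −0.0938 to 0.113 for Psmb8, −0.0241 to 0.0382 for Tap1 and −0.0402 to 0.0635 for Psmb7. Psmb8 was at 0.00137 with median-ratio scaling and 0.0139 with voom, and Psmb7 at 0.00491 with median-ratio scaling. The cause was not tested. The 14 members below the filter rest on few reads.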
